A study of Mus musculus with 20 samples.

Results

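Genes of mitosis and chromosome segregation were followed in mouse proximal colon organoids with and without active BrafV600E, kept with or without stem-cell niche factors. The set holds 48 genes chosen by name, with earlier results of these data known. All 48 were found on the array and had a probe that passed the detection filter, out of 21423 genes tested. Probes were named by RefSeq accession, or failing that by gene symbol or synonym. Gene expression was measured in total RNA on 20 single-colour Agilent arrays. Crypts came from the proximal colon of male mice of about 40 days.

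EV, BRAF and selected organoids all carried the heterozygous Braf+/LSL allele, in which BrafV600E can be switched on by Cre. EV organoids received the empty lentiviral backbone and no Cre. BRAF organoids received lentiviral Cre, with induction 5 months before profiling. The organoids called selected were BrafV600E organoids that had been selected to grow in base medium, which lacks the niche factors. Each of these types had 3 lines, and arrays were made for every line from 48 h cultures in base medium and in the medium named ENSW, which gave 6 groups of 3 arrays. The growth protocol lists EGF and media conditioned with Noggin, R-spondin and Wnt3a. Wild-type organoids gave 1 array in each medium. The titles name the same numbered BRAF line for the EV, BRAF and selected organoids and do not say whether a line is 1 mouse or 1 clone, so p-values rest on the spread between lines. For each gene that spread is pooled over the 6 groups.

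Mitotic genes encode the machinery that condenses chromosomes, attaches them to the spindle, checks the attachment and divides the cell. The products are made mainly in the second part of the cell cycle (G2 and M), and many of the genes are repressed in resting cells by the DREAM complex and switched on by B-MYB and FOXM1, which act with the MuvB core at a short promoter element called CHR. In the colon, dividing cells lie in the lower crypt, where Wnt ligands and EGF are supplied, and differentiated colonocytes at the surface no longer divide.

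A few promoter windows are shown because most of these genes moved together, and because they include a member that fell with no match (Ncaph) and a member that did not pass the test between media in EV organoids (Pttg1). Each window runs from 250 bases before to 50 bases after a RefSeq gene start (GRCm38.p6) and is written on the strand of the gene. Capitals mark the CHR-like motifs TTTGAA and TTCGAA and the motif CCAAT, each searched on both strands, so that TTCAAA and ATTGG are the same motifs on the other strand.
Mki67 (chr7:135716330-135716629, minus strand): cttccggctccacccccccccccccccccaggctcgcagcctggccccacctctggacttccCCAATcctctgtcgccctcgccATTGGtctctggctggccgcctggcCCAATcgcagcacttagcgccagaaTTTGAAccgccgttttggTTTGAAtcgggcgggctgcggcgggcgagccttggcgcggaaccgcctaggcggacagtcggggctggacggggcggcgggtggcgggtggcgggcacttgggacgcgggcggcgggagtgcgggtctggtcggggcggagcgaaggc
Cdk1 (chr10:69352863-69353162, minus strand): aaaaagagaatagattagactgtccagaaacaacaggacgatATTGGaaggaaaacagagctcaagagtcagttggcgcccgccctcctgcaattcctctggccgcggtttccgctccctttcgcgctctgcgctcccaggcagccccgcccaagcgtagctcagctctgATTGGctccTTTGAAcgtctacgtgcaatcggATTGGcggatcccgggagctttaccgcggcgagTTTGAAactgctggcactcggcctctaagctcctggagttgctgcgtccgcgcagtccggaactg
Plk1 (chr7:122159185-122159484, plus strand): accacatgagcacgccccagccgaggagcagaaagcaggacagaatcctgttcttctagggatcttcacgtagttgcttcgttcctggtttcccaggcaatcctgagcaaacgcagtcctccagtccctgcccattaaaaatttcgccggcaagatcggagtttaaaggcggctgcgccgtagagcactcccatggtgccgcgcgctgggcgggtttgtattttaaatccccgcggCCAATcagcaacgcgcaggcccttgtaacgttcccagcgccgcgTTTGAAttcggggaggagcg
Cdc20 (chr4:118437294-118437593, minus strand): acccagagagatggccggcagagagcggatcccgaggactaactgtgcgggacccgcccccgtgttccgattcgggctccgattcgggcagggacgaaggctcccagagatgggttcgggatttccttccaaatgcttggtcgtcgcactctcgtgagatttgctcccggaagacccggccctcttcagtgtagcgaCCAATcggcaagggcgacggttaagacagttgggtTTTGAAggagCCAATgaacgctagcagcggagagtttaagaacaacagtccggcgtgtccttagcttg
Ncaph (chr2:127133905-127134204, minus strand): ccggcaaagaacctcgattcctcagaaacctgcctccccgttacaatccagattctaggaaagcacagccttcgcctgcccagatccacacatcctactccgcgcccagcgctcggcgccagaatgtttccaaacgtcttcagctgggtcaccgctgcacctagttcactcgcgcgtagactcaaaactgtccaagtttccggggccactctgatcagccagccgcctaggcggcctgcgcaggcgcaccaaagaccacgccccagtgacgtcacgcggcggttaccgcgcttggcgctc
Pttg1 (chr11:43425932-43426231, minus strand): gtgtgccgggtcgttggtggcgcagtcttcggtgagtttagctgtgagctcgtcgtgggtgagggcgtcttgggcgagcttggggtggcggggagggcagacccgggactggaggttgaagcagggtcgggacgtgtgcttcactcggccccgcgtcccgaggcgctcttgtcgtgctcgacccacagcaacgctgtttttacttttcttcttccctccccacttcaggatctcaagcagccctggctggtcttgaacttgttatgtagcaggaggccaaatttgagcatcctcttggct
The windows of Mki67, Cdk1, Plk1 and Cdc20 hold both motifs. The windows of Ncaph and Pttg1 hold neither in these letters. RefSeq windows were found for 41 of the 48 genes, 45 windows in all. TTTGAA or TTCGAA was present in 33 of these 45 windows (73.3%), against 19.2% of the 32851 windows in the table. CCAAT was present in 73.3% of the members' windows against 37.4% of all windows, and both motifs in 64.4% against 7.52%. These matches describe letters and no binding was measured.

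Across the 20 arrays the members' levels split into arrays of EV or wild-type organoids in base medium, which were low, and all others. Levels are log2 values from which the 75th percentile of the same array was subtracted. Averaged over the 48 genes and set against the mean of the EV arrays in ENSW medium, EV lines 1, 2 and 3 in base medium lay at -3.12, -3.70 and -4.69. BRAF lines lay at -0.40, -1.09 and -1.42 in base medium and at -0.55, 0.34 and -0.079 in ENSW medium. Selected lines lay at 0.49, -0.10 and 0.35 in base medium and at -0.18, -0.28 and 0.13 in ENSW medium. Over the 18 arrays that entered the tests, the correlation of the other 47 members with Mki67 had a median of 0.97 (0.20 to 0.99), as a description of arrays that share cultures, lines and slides.

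**Figure D1:**
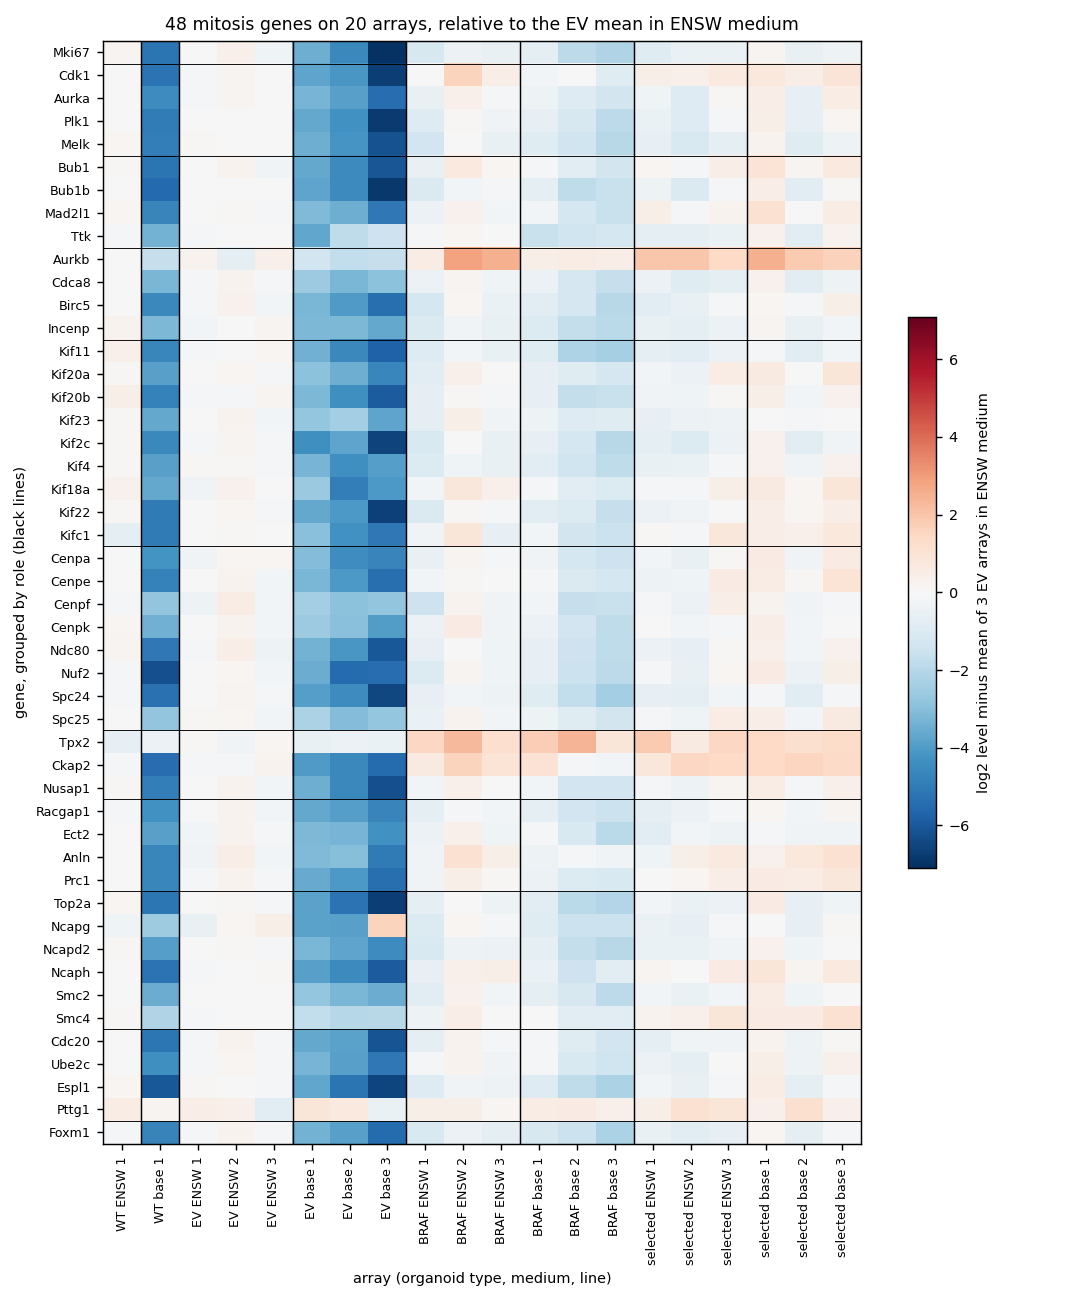
Level of each of the 48 genes (rows, grouped by role) on each of the 20 arrays (columns), as the log2 difference from the mean of the 3 EV arrays in ENSW medium. EV and wild-type arrays in base medium are blue for most genes, with array means of -3.12 to -4.69, while selected arrays stay near 0. Aurkb, Tpx2, Ncapg and Pttg1 depart from this pattern.

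The loss of niche factors in control organoids was examined first, as base minus ENSW medium in EV organoids. Of the 48 genes 45 fell and 0 rose, with a median difference of -4.15 on the log2 scale (-4.10 with genes below background set to their bound). Of all 21423 genes 18.8% were called lower and 23.4% higher, and their median difference was 0.19. Differences were tested with limma across all genes (3 arrays per group), are given ± 1 standard error (SE), and count as called where the p adjusted by the Benjamini-Hochberg method lies under 0.05. In RNA from whole organoids, fewer dividing cells and less RNA of these genes per cell cannot be told apart.

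Mki67, the marker of cycling cells that coats mitotic chromosomes, lay at 4.14, 4.51 and 3.83 in lines 1, 2 and 3 in ENSW medium and at 0.71, -0.41 and -2.86 in base medium. All base arrays lay below all ENSW arrays, with line 3 the lowest. Mki67 fell by 5.01 ± 0.65 (adjusted p = 5.33e-05). The mitotic kinase genes fell together, 4 of 4 with a median of -4.74. Cdk1, the kinase that drives entry into mitosis, lay at -0.049, 0.25 and 0.053 in ENSW and at -3.67, -4.05 and -6.62 in base medium, where 2 of 3 arrays were well above background. The groups did not overlap, and Cdk1 fell by 4.87 ± 0.58 (adjusted p = 3.44e-05). Plk1, a kinase of spindle assembly and mitotic exit, fell by 4.90 ± 0.61 (adjusted p = 4.09e-05), Aurka, the centrosome kinase, by 4.20 ± 0.47 (adjusted p = 2.29e-05) and Melk by 4.61 ± 0.55 (adjusted p = 3.47e-05).

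All 4 spindle checkpoint genes fell in EV organoids. Bub1b, which holds back anaphase until chromosomes are attached, lay at 0.31, 0.28 and 0.25 in ENSW medium and at -3.44, -4.26 and -6.58 in base medium. Its ENSW levels were nearly equal, whereas its base levels spread over more than 3 log2 units, again with line 3 lowest. Bub1b fell by 5.04 ± 0.61 (adjusted p = 3.73e-05), the checkpoint kinase Bub1 by 4.73 ± 0.50 (adjusted p = 1.65e-05) and Mad2l1 by 3.88 ± 0.45 (adjusted p = 2.95e-05). Bub1b was well above background on 2 of 3 base arrays and Bub1 on 1 of 3, so the sizes of their falls are limited by background. Ttk, the kinase that starts the checkpoint signal, fell by 2.32 ± 0.43 (adjusted p = 0.000731), and 1 of its 3 base arrays was well above background. The Ttk call was lost with normexp background correction (adjusted p = 0.275).

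The chromosomal passenger complex corrects faulty attachments and guides cytokinesis. Its 4 genes fell with a median of -3.13. Birc5 (survivin) fell by 4.20 ± 0.46 (adjusted p = 2.08e-05), the scaffold Incenp by 3.33 ± 0.26 (adjusted p = 4.35e-06) and Cdca8 (borealin) by 2.93 ± 0.32 (adjusted p = 1.95e-05). Aurkb, the kinase of the complex, was dim. It was well above background on 1 of 3 ENSW arrays and 0 of 3 base arrays, so no fold is given, and its adjusted p was 0.0136. That call was lost with normexp (0.892), without the ENSW array of line 3 (0.054) and without both arrays of line 3 (0.122).

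All 9 kinesins, motors that build the spindle or move chromosomes along it, fell with a median of -4.11. Kif11, which pushes spindle poles apart, lay at -2.17, -2.11 and -1.96 in ENSW medium and was well above background on 0 of 3 base arrays. It was at least 10.7-fold lower in base medium (adjusted p = 1.54e-05). Kif18a, which damps chromosome movement, was at least 8.03-fold lower (adjusted p = 2.94e-05). Kif2c, a microtubule depolymerase at centromeres, and Kif22, which moves chromosome arms, fell, by 4.88 ± 0.57 (adjusted p = 2.78e-05) for Kif2c and 4.78 ± 0.56 (adjusted p = 3.05e-05) for Kif22. For Kif2c 1 of 3 base arrays was well above background, which limits the size of its fall. The smallest fall among the motors was that of the cytokinesis motor Kif23, by 2.97 ± 0.32 (adjusted p = 1.68e-05).

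Centromere and kinetochore genes, whose products join chromosomes to microtubules, fell in 8 of 8 cases with a median of -4.14. Cenpa, the centromeric histone H3 variant, fell by 4.05 ± 0.41 (adjusted p = 1.19e-05). Within the NDC80 complex, which grips microtubules, Spc24 fell by 4.95 ± 0.52 (adjusted p = 1.52e-05), Nuf2 by 4.81 ± 0.49 (adjusted p = 1.38e-05), Ndc80 by 4.52 ± 0.52 (adjusted p = 2.77e-05) and Spc25 by 2.69 ± 0.31 (adjusted p = 2.83e-05). Nuf2 was well above background on 1 of 3 base arrays and Spc24 on 2 of 3, so background limits the sizes of their falls. The kinetochore motor Cenpe fell by 4.23 ± 0.45 (adjusted p = 1.56e-05). Cenpf was well above background on 3 of 3 ENSW and 0 of 3 base arrays and was at least 1.66-fold lower (adjusted p = 0.000271), a call lost with normexp (0.562).

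Among genes of spindle assembly, Ckap2 was at least 19.8-fold lower in base medium, with 0 of 3 base arrays well above background (adjusted p = 4.75e-06), and Nusap1, a microtubule bundling protein, fell by 4.76 ± 0.52 (adjusted p = 1.95e-05). For Nusap1 2 of 3 base arrays were well above background. All 4 cytokinesis genes fell. Prc1, which bundles the central spindle, fell by 4.35 ± 0.35 (adjusted p = 4.51e-06), Racgap1 of the centralspindlin complex by 4.08 ± 0.29 (adjusted p = 2.61e-06), the actin binder Anln by 3.73 ± 0.48 (adjusted p = 5.02e-05) and Ect2 by 3.57 ± 0.39 (adjusted p = 1.95e-05).

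Genes of chromosome structure fell in 5 of 6 cases. Top2a, the topoisomerase that untangles sister DNA, had the largest fall of all members, by 5.24 ± 0.55 (adjusted p = 1.54e-05). It lay at 1.995, 2.08 and 1.90 in ENSW and at -1.82, -3.23 and -4.69 in base medium, without overlap. Condensin I genes Ncaph and Ncapd2 fell by 4.76 ± 0.43 (adjusted p = 6.9e-06) and by 3.81 ± 0.34 (adjusted p = 6.84e-06), and the SMC subunits Smc2 and Smc4, which both condensins share, by 3.17 ± 0.33 (adjusted p = 1.53e-05) and 1.92 ± 0.25 (adjusted p = 6.03e-05). Of the genes that end mitosis, Cdc20, the activator of the anaphase promoting complex, fell by 4.52 ± 0.52 (adjusted p = 2.53e-05), its ubiquitin carrier enzyme Ube2c by 4.08 ± 0.41 (adjusted p = 1.14e-05) and separase, Espl1, by 5.12 ± 0.54 (adjusted p = 1.57e-05). Foxm1, the transcription factor of the G2 and M program, fell by 4.21 ± 0.43 (adjusted p = 1.29e-05). Espl1 was well above background on 1 of 3 base arrays and Foxm1 on 2 of 3, so background limits the sizes of their falls.

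Pttg1, Ncapg and Tpx2 did not pass the test between the media in EV organoids. Pttg1 (securin, the inhibitor of separase) lay at 1.96, 1.80 and 0.64 in ENSW medium and at 2.35, 2.15 and 1.02 in base medium. Each line was slightly higher in base medium, while the groups overlapped widely (0.37 ± 0.37, adjusted p = 0.46). The fit did not pair the arrays of a culture. That SE therefore holds the spread between lines, and does not measure the spread of the change within lines. A dimmer Pttg1 probe gave -0.028. Ncapg, a condensin I subunit, lay at -3.81, -3.14 and -2.87 and at -7.06, -7.12 and -1.66. Lines 1 and 2 were low in base medium and line 3 lay above every EV array in ENSW medium, so the difference carried a wide error (-2.01 ± 1.02, adjusted p = 0.129). Without the base array of line 3 the Ncapg difference was -3.82 (adjusted p = 2.1e-05), and with the culture as a random block it passed as well (0.0383).

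Tpx2, which activates Aurora A and nucleates spindle microtubules, depended on the probe. The brightest probe (chromosome 2, 152720285 to 152720344, mm9) gave 0.88, 0.57 and 0.94 in ENSW and 0.25, 0.35 and 0.32 in base medium and did not pass (-0.49 ± 0.38, adjusted p = 0.325). The other probe (152719476 to 152719535) gave 0.41, 0.74 and 0.35 in ENSW and -3.08, -3.71 and -6.45 in base medium, a difference of -4.91. The probes therefore differ in whether Tpx2 fell. With the mean of the probes of each gene the Tpx2 difference was -2.70 (adjusted p = 0.000152), and the brightest probe passed when only these groups entered the fit (0.0411). Cdk1 had 3 probes on chromosome 10, and all gave lower means in base medium, by differences of -4.87 for the brightest, -2.69 and -1.13. The dimmer probes were well above background on 15 and 11 of 18 arrays, so the sizes of their differences are limited by background. Of the 48 members 35 had 1 probe and 13 had several that passed the filter. In 11 called members with another probe, 0 probes went the other way here.

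**Figure D2:**
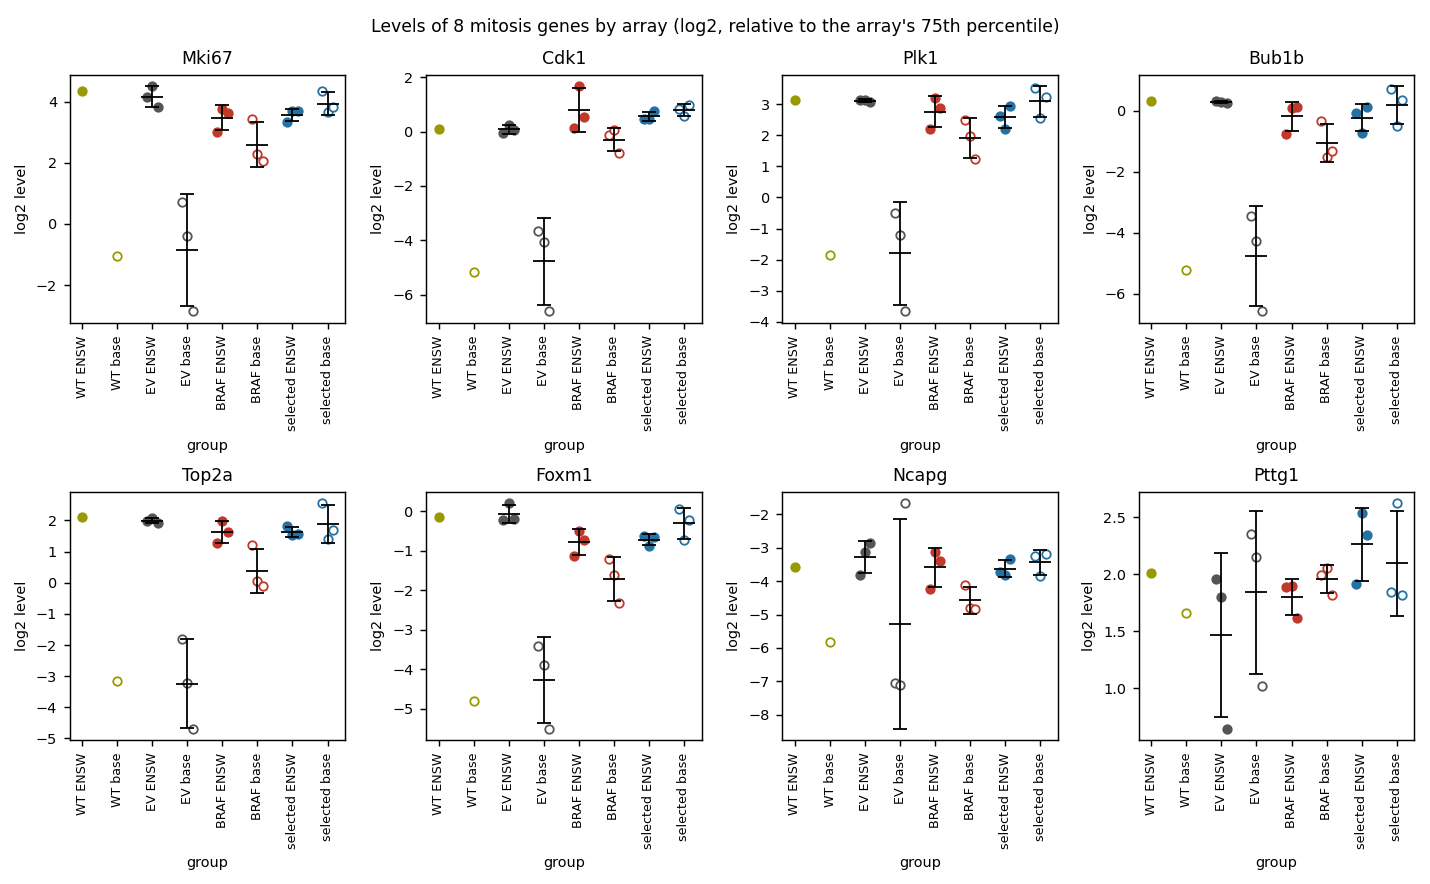
Log2 level of 8 genes on every array by group, scaled to its 75th percentile. Filled points are ENSW and open points base medium, and bars show the mean ± SD of 3 lines (wild type has 1 array per medium). Mki67, Cdk1, Plk1, Bub1b, Top2a and Foxm1 are low in EV organoids in base medium, Ncapg is high there in line 3 alone, and Pttg1 overlaps across all groups.

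The fall was seen in each EV culture, with a median over the members of -3.23 in line 1, -4.14 in line 2 and -5.08 in line 3, where 47, 47 and 46 of 48 genes were lower. Slide 1 held EV line 1 and slide 2 held EV lines 2 and 3. The medians within slides (-3.23 and -4.71) therefore restate these cultures and are no further check. On the 2 wild-type arrays, which carry no test, the 48 genes averaged 0.027 in ENSW and -4.18 in base medium relative to the EV mean in ENSW medium, and 47 of 48 lay below that mean in base medium. Mki67 lay at 4.35 and -1.04 on them.

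Differentiation markers moved with this fall. The summed level of 8 colonocyte markers (linear, where 1 is the 75th percentile of the array) was 65.2 to 359 in EV organoids in ENSW and 1296 to 2521 in base medium. In BRAF organoids it was 32.9 to 43.1 in ENSW and 164 to 478 in base medium, and in selected organoids 19.6 to 24.7 and 20.9 to 27.3. The part of a changed cell make-up in the mitotic genes' result was not tested. In every group each of the 8 epithelial markers was detected on some array. Of 10 mesenchymal markers Col1a1, Dcn, Lum and Pdgfra were not well above background on any array, and the summed level was 0.462 to 0.943 in EV organoids in ENSW and 2.23 to 7.06 in base medium. The sum of 7 immune markers was 19.3 to 20.4 and 40.5 to 62.3, and that of 4 endothelial markers 2.78 to 3.17 and 2.99 to 3.39, with Cdh5 and Tek not well above background on any EV array.

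BRAF and selected organoids were each compared with EV organoids in ENSW medium, where all had niche factors. These comparisons share the EV arrays, and EV arrays shared no slide with BRAF or selected arrays, so organoid type and slide are confounded and cannot be told apart. Most mitotic genes did not pass. In BRAF organoids 2 of 48 genes were called higher and 0 lower, with a median of -0.16, and 4.86% of all genes were called higher (median of all genes 0.062). In selected organoids 3 were called higher and 0 lower, with a median of -0.28, against 8.71% of all genes higher (median of all genes 0.11).

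Aurkb was higher than in EV organoids in BRAF organoids by 1.98 ± 0.47 (adjusted p = 0.0244) and in selected ones by 1.78 ± 0.47 (adjusted p = 0.0235). It lay at -5.87, -6.76 and -5.78 in EV, -5.58, -3.30 and -3.59 in BRAF and -4.15, -4.19 and -4.72 in selected organoids. The selected arrays were well above background on 3 of 3, BRAF on 2 of 3 and EV on 1 of 3. The Aurkb call was lost with normexp in both types (adjusted p = 0.0789 and 0.314), with the authors' values in selected organoids (0.0816) and on leaving out single arrays, as in BRAF organoids without the ENSW array of BRAF line 2 (0.119). Tpx2, by its brightest probe, was higher in BRAF organoids by 1.65 ± 0.38 (adjusted p = 0.0215) and in selected ones by 1.33 ± 0.38 (adjusted p = 0.0325). Its other probe gave 0.0059 and -0.19, and the mean of its probes did not pass (adjusted p = 0.258 and 0.38). Leaving out any 1 of the EV arrays in ENSW medium ended the Tpx2 calls (adjusted p 0.0566 to 0.0869).

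Ckap2 was higher in selected organoids by 1.23 ± 0.38 (adjusted p = 0.0448), a call that 18 alternatives ended, among them quantile normalization (0.0666) and slide as a random block (0.0836). In BRAF organoids Ckap2 did not pass (1.06 ± 0.38, adjusted p = 0.112). Among the others, Cdk1 gave 0.71 ± 0.58, adjusted p = 0.525 in BRAF and 0.48 ± 0.58, adjusted p = 0.621 in selected organoids by its brightest probe, whereas an overlapping probe gave 2.61 and 2.06. That probe lay at -4.93, -5.04 and -5.04 in EV organoids and at -3.57, -1.09 and -2.52 in BRAF organoids, without overlap. Selected and BRAF organoids were also compared in ENSW medium, where 0 of 48 genes were called, with differences of -0.63 (Ttk) to 0.48 (Cenpf), 0 at an unadjusted p under 0.05, and 0.607% of all genes called in either direction.

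**Figure D3:**
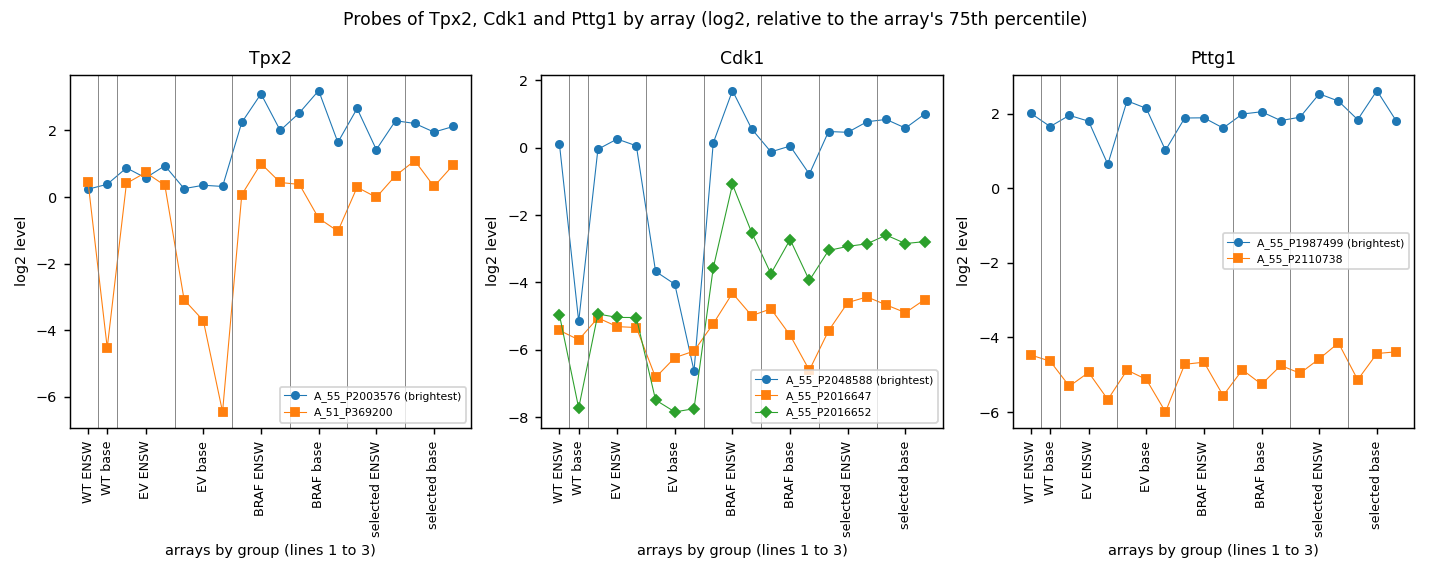
Log2 level of each probe of Tpx2, Cdk1 and Pttg1 that passed the filter, on every array by group, scaled to its 75th percentile. The brightest Tpx2 probe stays at 0.25 to 0.35 in EV organoids in base medium while the other falls to -3.08 to -6.45, the dimmer Cdk1 probes lie near background in EV organoids in base medium, and the Pttg1 levels overlap between media.

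BRAF and selected organoids were then compared with EV organoids in base medium, without niche factors. Nearly all mitotic genes stood higher than in EV organoids. The EV organoids had received no Cre and shared no slide with the others, so BrafV600E, Cre and slide cannot be told apart. In BRAF organoids 45 of 48 genes were called higher and 0 lower than in EV organoids, with a median of 3.14 (3.08 with bounds), against 17.9% of all genes higher and 13.1% lower (median of all genes 0.031). In selected organoids 46 were called higher and 0 lower, with a median of 4.34, against 25% of all genes higher and 23.2% lower (median of all genes 0.019). Both comparisons share the EV arrays, which were the low ones. Where not all of those arrays were well above background, as for Bub1, background limits the sizes here too. In 47 of 48 genes the mean was higher in selected than in BRAF organoids, Tpx2 being the exception.

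Mki67 lay at 3.44, 2.29 and 2.04 in BRAF lines 1, 2 and 3 and at 4.34, 3.65 and 3.81 in selected lines, against 0.71, -0.41 and -2.86 in EV lines. No array of either type overlapped the EV arrays. Mki67 was higher in BRAF organoids by 3.45 ± 0.65 (adjusted p = 0.00143) and in selected ones by 4.79 ± 0.65 (adjusted p = 3.81e-05). The first call missed the threshold when only those groups entered the fit (adjusted p = 0.0523).

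Among the kinases, Cdk1 lay at -0.13, 0.046 and -0.79 in BRAF and 0.84, 0.58 and 0.996 in selected organoids and was higher by 4.49 ± 0.58 (adjusted p = 0.000149) and by 5.58 ± 0.58 (adjusted p = 5.39e-06). Plk1 was higher by 3.70 ± 0.61 (adjusted p = 0.000581) and by 4.89 ± 0.61 (adjusted p = 1.84e-05). Of the checkpoint genes, Bub1 was higher by 3.99 ± 0.50 (adjusted p = 0.000123) and by 5.34 ± 0.50 (adjusted p = 2.64e-06). Ttk did not pass in BRAF organoids (0.90 ± 0.43, adjusted p = 0.132), where 1 of 3 arrays was well above background, and was higher in selected organoids by 2.27 ± 0.43 (adjusted p = 0.000623). Without the base array of EV line 3 the Ttk difference in BRAF organoids passed (0.0427).

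The motors and kinetochore genes were called in 9 of 9 and 8 of 8 cases in both types. Kif11 was at least 3.04-fold higher in BRAF and at least 8.25-fold higher in selected organoids, and Kif18a at least 5.2-fold and 11.6-fold higher, since 0 of 3 EV arrays were well above background for either gene. Ckap2 was at least 23.5-fold higher in BRAF and at least 53.9-fold higher in selected organoids, the largest bounds in the set. Aurkb was at least 2.58-fold higher in selected organoids (adjusted p = 2.63e-05), a call lost with normexp (0.108). Cenpf was called in BRAF organoids at an adjusted p of 0.0158, which 7 alternatives ended.

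In chromosome structure, Ncaph was higher by 3.85 ± 0.43 (adjusted p = 6.26e-05) in BRAF and 5.35 ± 0.43 (adjusted p = 8.78e-07) in selected organoids, Top2a by 3.63 ± 0.55 (adjusted p = 0.000359) and 5.12 ± 0.55 (adjusted p = 6.43e-06), and Smc4 by 1.38 ± 0.25 (adjusted p = 0.00123) and 2.67 ± 0.25 (adjusted p = 2.76e-06). Ncapg did not pass (0.71 ± 1.02, adjusted p = 0.633 and 1.85 ± 1.02, adjusted p = 0.148). Without the base array of EV line 3 it passed in both, at 2.52 (adjusted p = 0.000596) and 3.66 (adjusted p = 9.64e-06). Foxm1 was higher by 2.57 ± 0.43 (adjusted p = 0.000659) and by 3.98 ± 0.43 (adjusted p = 6.63e-06). Pttg1 did not pass in either type (0.12 ± 0.37, adjusted p = 0.84 and 0.25 ± 0.37, adjusted p = 0.603), with levels of 1.995, 2.06 and 1.82 in BRAF and 1.84, 2.62 and 1.81 in selected organoids.

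**Figure D4:**
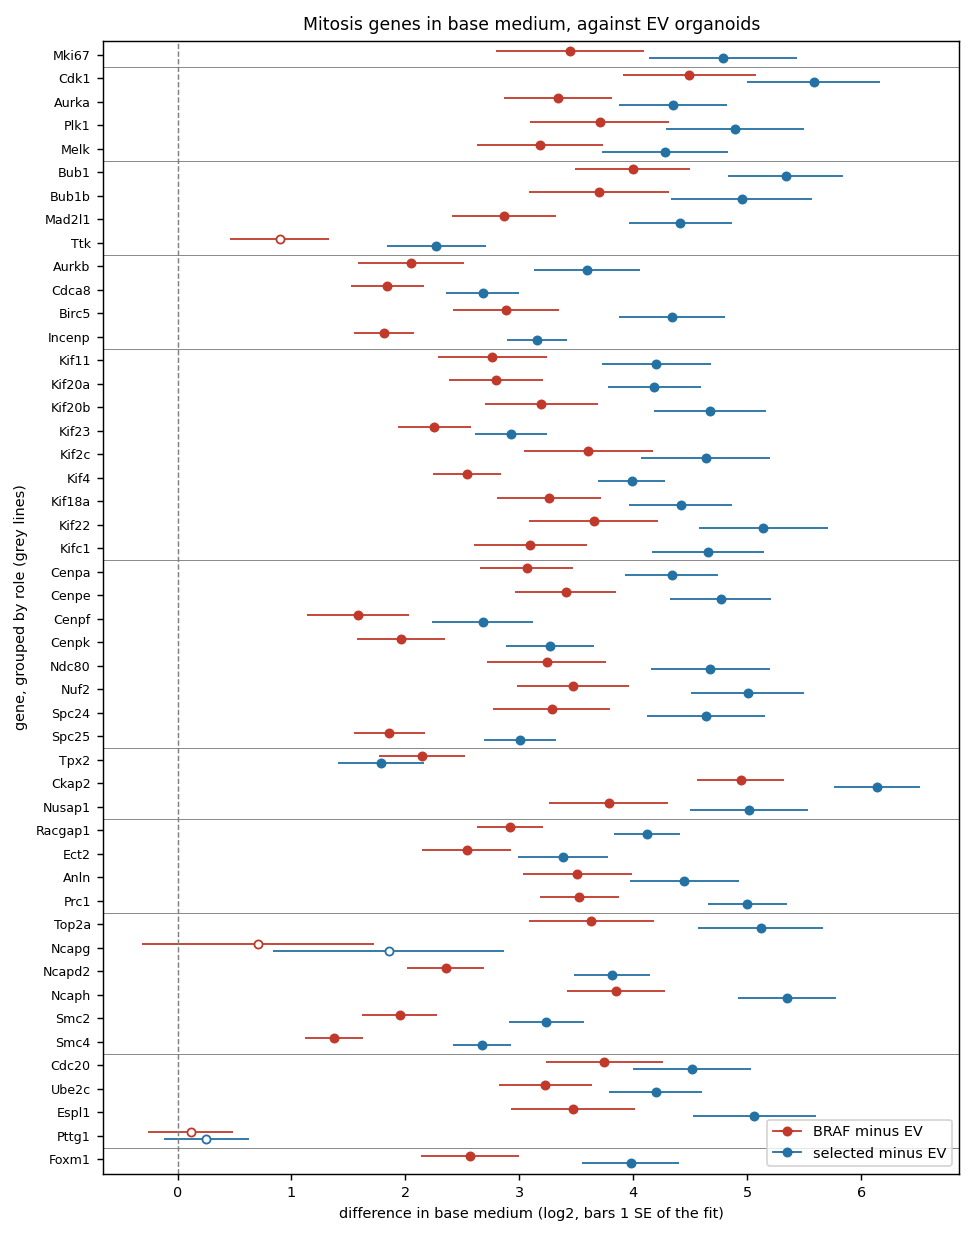
Difference from EV organoids in base medium on the log2 scale for each of the 48 genes, in BRAF (red) and selected (blue) organoids, with bars of 1 SE of the fit. Filled points passed the test (45 in BRAF and 46 in selected organoids), and open points (Ttk, Ncapg, Pttg1) did not. For Kif11, Kif18a, Ckap2, Cenpf and Aurkb the EV level was not well above background, so the plotted difference of measured means is not a bound.

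Base and ENSW medium were compared within BRAF organoids, and the answer differed between lines. The members' median change was 0.14 in line 1, where 40 of 48 genes were higher in base medium, and -1.44 and -1.39 in lines 2 and 3, where 46 and 47 were lower. With limma 0 of 48 genes were called in either direction, 19 had an unadjusted p under 0.05, and the median was -0.87. Of all genes 0.593% were called lower (median of all genes 0.061). Taking both arrays of a culture as a random block, 10 members were called lower and 0 higher, and without both arrays of BRAF line 1 also 10. No share of all genes is given for these fits or for the unadjusted p, so those counts cannot be set against a background.

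Aurkb had the largest difference (-1.52 ± 0.47, adjusted p = 0.108). It lay at -5.58, -3.30 and -3.59 in ENSW and at -5.74, -5.63 and -5.67 in base medium, where 1 of 3 arrays was well above background, and with the culture as a random block its adjusted p was 0.0109. Ttk (-1.43 ± 0.43, adjusted p = 0.105) lay at -3.74, -3.44 and -3.57 and at -5.15, -5.03 and -4.86, lower in base medium in each line. Spc24 gave -1.28 ± 0.52, adjusted p = 0.208, Kif11 -1.27 ± 0.48, adjusted p = 0.18 and Incenp -0.91 ± 0.26, adjusted p = 0.0925. All 5 were among the 10 genes called with the culture block, together with Cdca8, Cenpk, Prc1, Racgap1 and Smc2. Mki67 lay at 2.997, 3.76 and 3.63 in ENSW medium and at 3.44, 2.29 and 2.04 in base medium (-0.87 ± 0.65, adjusted p = 0.503). Line 1 was higher in base medium and lines 2 and 3 were lower. Pttg1 gave 0.16 ± 0.37, adjusted p = 0.878.

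In selected organoids 0 of 48 genes were called between the media and 0 had an unadjusted p under 0.05. The median was 0.38, and 0.00467% of all genes, 1 gene, were called higher. Lines 1, 2 and 3 had medians of 0.72, 0.19 and 0.24, with 46, 39 and 43 of 48 genes higher in base medium. The p-values here use the spread pooled over the 6 groups, EV organoids included. For Cdk1 the SD was 1.61 in EV organoids in base medium, against 0.17 (ENSW) and 0.21 (base) in selected organoids. Birc5 had the largest difference (0.62 ± 0.46, adjusted p = 1), with 3.57, 3.76 and 4.16 in ENSW and 4.47, 4.17 and 4.70 in base medium. Mki67 gave 0.37 ± 0.65, adjusted p = 1 and Pttg1 -0.17 ± 0.37, adjusted p = 1.

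**Figure D5:**
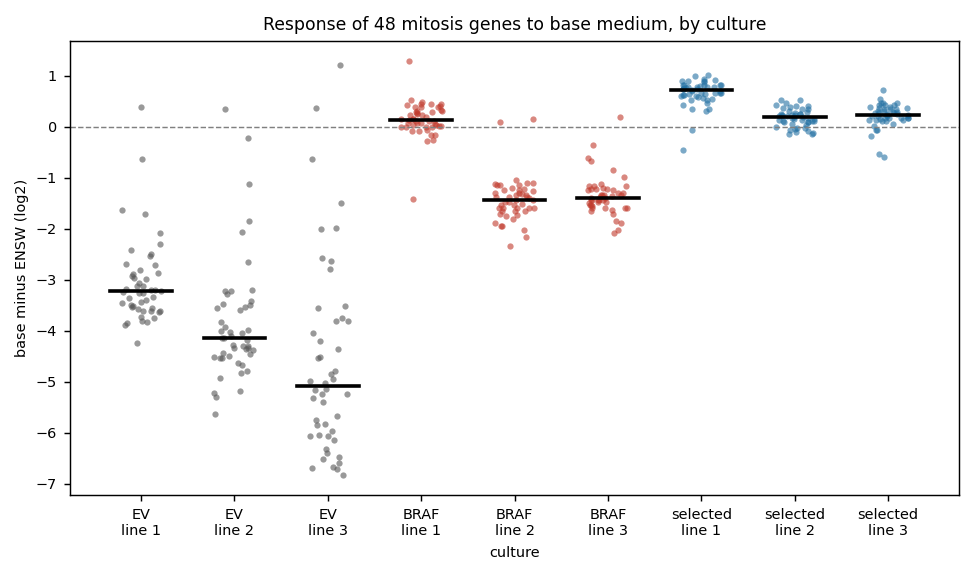
Change of each of the 48 genes from ENSW to base medium (log2, points) in each of the 9 cultures, with the median as a black bar. Medians are -3.23 to -5.08 in EV cultures, 0.14, -1.44 and -1.39 in BRAF cultures and 0.19 to 0.72 in selected cultures.

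Whether the response to base medium differed between organoid types was tested as an interaction. Against EV organoids, the response of BRAF organoids was higher (a smaller fall) in 40 of 48 genes and lower in 0, with a median difference of 3.27, against 2.95% of all genes higher (median of all genes -0.085). The response of selected organoids was higher in 44 of 48 genes and lower in 0, with a median of 4.59, against 13.8% of all genes (median of all genes -0.19). These tests share the EV arrays, so the limit from background in base medium applies here too, as for Bub1b and Kif2c. For Mki67 the difference in response was 4.15 ± 0.92, adjusted p = 0.0341 in BRAF and 5.39 ± 0.92, adjusted p = 0.00129 in selected organoids. For Bub1b it was 4.16 ± 0.87, adjusted p = 0.0272 and 5.45 ± 0.87, adjusted p = 0.000916, for Plk1 4.05 ± 0.86, adjusted p = 0.0291 and 5.41 ± 0.86, adjusted p = 0.000885, for Cdk1 3.79 ± 0.83, adjusted p = 0.0326 and 5.11 ± 0.83, adjusted p = 0.000974, and for Top2a 3.99 ± 0.78, adjusted p = 0.0229 and 5.48 ± 0.78, adjusted p = 0.000527. Kif2c gave 4.15 ± 0.80, adjusted p = 0.0227 in BRAF organoids.

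The count for BRAF organoids rested on single arrays and on the size of the fit. No share of all genes is given for the alternative fits, so their counts describe the members alone. It was 7 without the base array of BRAF line 1, without the ENSW array of BRAF line 1 or 3, or without the ENSW array of EV line 2 or 3, and 18 without that of EV line 1. It was 3 without both arrays of BRAF line 1, 1 when only the groups compared were fitted and 16 with slide as a fixed block. With the line as a replicate block it was 41, with Cenpk called (adjusted p = 0.0348). The members not called in BRAF organoids were Pttg1 (-0.21), Tpx2 (0.50), Ttk (0.88), Ncapg (1.02), Smc4 (1.32), Cenpk (2.01), Aurkb and Cenpf. No size is given for Aurkb and Cenpf, since 0 of 3 EV arrays in base medium were well above background. In selected organoids Pttg1 (-0.54), Tpx2 (0.46), Ncapg (2.21) and Aurkb were not called. Smc4 had the smallest called difference there (2.18 ± 0.36, adjusted p = 0.00108). Between selected and BRAF organoids the response was called for 0 of 48 members (18 at an unadjusted p under 0.05, median 1.30), and 0% of all genes were called (1798 genes at an unadjusted p under 0.05).

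Selected organoids were set against BRAF organoids in base medium, the medium they had been selected in. In both media only slide 4 held arrays of both types. Organoid type and slide are therefore largely confounded here and cannot be fully told apart. Of the 48 genes 12 were called higher and 0 lower, with a median of 1.30, and 4.64% of all genes were called higher (median of all genes -0.028). An unadjusted p under 0.05 was seen in 35 of the 48. No share of all genes is given for the unadjusted p, so that count cannot be set against a background. The called genes were 4 of chromosome structure, Smc2, Smc4, Ncapd2 and Ncaph, the kinetochore genes Cenpk and Spc25, the motors Kif4 and Kif20a, the cytokinesis genes Prc1 and Racgap1, the passenger scaffold Incenp and the checkpoint gene Mad2l1. Smc4 lay at 2.65, 1.90 and 1.85 in BRAF and at 3.28, 3.24 and 3.78 in selected organoids, without overlap, and was higher by 1.30 ± 0.25 (adjusted p = 0.00665). With the line as a replicate block 12 genes were called, with Foxm1 among them (adjusted p = 0.0409, against 0.0527 without the block) and Kif20a not (adjusted p = 0.0579). Incenp was higher by 1.34 ± 0.26 (adjusted p = 0.00696) and Kif4, a chromosome-bound kinesin, by 1.45 ± 0.30 (adjusted p = 0.00843).

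The number called was unstable, and no share of all genes is given for the other fits. It was 29 with normexp, 31 with the authors' values, 6 with the culture as a random block, 2 with slide as a fixed block and 0 when only these groups entered the fit. Leaving out 1 array gave 3 to 31 calls. It was 3 without the base array of BRAF line 2 or 3, 4 without that of selected line 1 or 3, 29 without that of BRAF line 1, and 25 and 31 without that of EV line 1 or 3. The EV arrays enter this comparison through the spread pooled over the 6 groups. On slide 4, which holds BRAF line 1 and selected line 3, the median difference was 0.80 in base and 0.68 in ENSW medium. Espl1 (1.59 ± 0.54, adjusted p = 0.0782), Kifc1 (1.56 ± 0.50, adjusted p = 0.062) and Aurkb (1.55 ± 0.47, adjusted p = 0.0507) had the largest differences and were not called, and neither was Mki67 (1.34 ± 0.65, adjusted p = 0.216). The brightest Tpx2 probe gave -0.36 and its other probe 1.22.

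Other genes of mitosis outside the set were read from the same fit. Of 94 listed genes, also chosen with earlier results of these data known, 92 were tested. In EV organoids 74 fell and 2 rose in base medium, with a median of -2.10, beside 18.8% of all genes lower and 23.4% higher. The kinase Pbk fell by 5.86 ± 0.86 (adjusted p = 0.000121), the spindle and kinetochore gene Ska1 by 5.67 ± 0.68 (adjusted p = 3.32e-05) and the spindle pole gene Aspm fell by 5.44 ± 0.69 (adjusted p = 4.74e-05). Cyclin genes Ccnb1 and Ccnb2, partners of Cdk1, fell by 5.34 ± 0.69 (adjusted p = 5.12e-05) and by 4.92 ± 0.64 (adjusted p = 5.32e-05). Ska1 was well above background on 1 of 3 base arrays, and Pbk, Aspm and Ccnb1 on 2 of 3, so background limits the sizes of their falls. In base medium 63 were higher and 1 lower in BRAF than in EV organoids, and 74 higher and 3 lower in selected organoids. Of all genes 17.9% were higher and 13.1% lower in BRAF organoids, and 25% higher and 23.2% lower in selected organoids. In BRAF organoids 0 rose and 4 fell between the media (Nsl1, Pds5b, Cdca5 and Ska2, the largest difference being -1.34 ± 0.31, adjusted p = 0.0445 for Nsl1), and in selected organoids 0 were called. Selected exceeded BRAF organoids in base medium for 26 of 92 genes, led by the condensin II gene Ncapg2 (1.91 ± 0.34, adjusted p = 0.00432), Cdca5 (1.79 ± 0.26, adjusted p = 0.00112) and Cenpn (1.77 ± 0.35, adjusted p = 0.0068). Of all genes 4.64% were called higher there. In ENSW medium the anaphase promoting complex gene Anapc2 alone was called in BRAF organoids (0.60 ± 0.13, adjusted p = 0.0193), and in selected organoids Anapc2 and Lin52 were higher and Lin54 and Cenpl lower than in EV organoids.

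The same genes were also counted by complex, beside the 18.8% of all genes called lower and 23.4% called higher in EV organoids in base medium. Of 10 anaphase promoting complex genes 5 fell in EV organoids in base medium, with a median of -0.50 and a largest fall of 1.60. Of 9 cohesin genes and regulators 5 fell and 1 rose, with a median of -0.49. Of the MuvB core and Mybl2 genes 2 of 5 fell and 1 rose, with a median of 0.28, and Mybl2, which encodes B-MYB, fell by 3.05 ± 0.39 (adjusted p = 5.15e-05). All 3 condensin II genes fell, with a median of -2.08, and Ncapg2 fell by 3.65 ± 0.34 (adjusted p = 8.28e-06). In base medium selected organoids exceeded EV organoids for 5 of 10 anaphase promoting complex genes and 4 of 9 cohesin genes (1 was lower, Stag2), with medians of 0.47 and 0.34, beside 25% of all genes higher and 23.2% lower.

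Arrays had 59.6% to 65.2% of spots well above background, and 0 spots were saturated. Precision is set by having 3 arrays in each group.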

How the data were processed

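Total RNA was hybridised to single-colour (Cy3) Agilent arrays. Scanner files held spot intensity from Agilent Feature Extraction per the file headers, and the processed signal used here is background-subtracted per the file headers. A deposited table of log2 values, the authors' own, ranks spots as the median signal does. The submitters' processing notes name limma.

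Control spots (1377 per array) and 48 outlier spots over all arrays were left out. log2 signal minus the array's 75th percentile was averaged per probe. A probe was kept (26826 were) if 3 or more of the 18 arrays had it well above background, and the brightest stood for its gene. Group means were fitted with limma 3.58.1 (R 4.3.3, lmFit and eBayes, 12 residual degrees of freedom, 12 contrasts) without a block, with Benjamini-Hochberg adjustment over 21423 genes. The fit code was also run on simulated data with independent arrays. Those data lacked the correlation within cultures, so that run does not test a fit without a block. Python 3.11.15, numpy 2.4.6 and matplotlib 3.10.9 made the plots.

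Where no array of a group had a gene well above background, "at least N-fold" is a bound: the brighter group's mean over a dim-group mean in which each array counts with its own signal or, if higher, with its dimmest detected probe. The bound carries no sampling error.

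Both arrays of a culture share its line, and their deviations from the group means correlated in 9 of 9 cultures (0.42 to 0.87). The titles give EV, BRAF and selected organoids the same numbered BRAF lines, so the numbers pair the samples by line. Same-numbered lines of different types correlated over 0.1 in 17 of 36 pairs, against 2 of 72 pairs of differently numbered lines of different types. The line as a replicate block is an alternative.

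Named genes were Mki67, Cdk1, Plk1, Aurkb, Bub1b, Kif11, Cenpa, Ndc80, Tpx2, Prc1, Top2a, Cdc20 and Foxm1, the 4 largest and 4 smallest differences per contrast, called members where 6 or fewer were called, exceptions in direction or between probes, and up to 3 called other mitosis genes per direction. The text prints a subset of these in most contrasts after the EV medium comparison, and other members named by role there, such as Aurka, Melk, Nuf2 and Anln, with Ccnb1, Ccnb2, Mybl2, Stag2 and a few others, were named after their values were seen. The members and lists were chosen with earlier results of these data known.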

Additional observations from a re-analysis of the deposited data

Results flagged for a closer look

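The response to base medium differed between organoid types by the test of the difference itself (limma interaction terms). Against EV organoids 40 of the 48 genes differed in BRAF organoids and 44 in selected organoids, all with a response that was less negative or positive, beside 2.95% and 13.8% of all genes called higher. The count for BRAF organoids fell to 7 without any 1 of 5 single arrays, to 3 without both arrays of BRAF line 1 and to 1 when only the groups compared were fitted. In BRAF organoids the difference was 4.16 for Bub1b, 3.79 for Cdk1, 4.15 for Kif2c, 4.15 for Mki67, 4.05 for Plk1 and 3.99 for Top2a on the log2 scale. In selected organoids it was 5.45 for Bub1b, 5.11 for Cdk1, 5.39 for Mki67, 5.41 for Plk1, 5.48 for Top2a and 2.18 for Smc4. Within BRAF organoids line 1 had a median change of 0.14 against -1.44 and -1.39 in lines 2 and 3. Groups of 3 arrays were not screened for single outlying samples.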

How the results depend on the processing

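Alternatives were normexp background correction, quantile normalization, median scaling, the authors' values, no filter, a filter of 9 arrays, the mean of probes, the line as a replicate block, culture or slide as a random block, slide as a fixed block, only the groups compared, and leaving out single arrays or both arrays of a culture. Leaving out both arrays of BRAF line 1 or EV line 3 was chosen after seeing the data. No share of all genes is given for the alternatives, so their counts cannot be set against a background. The line as a replicate block, a pairing by line, moved no count by over 1.5 times (45 in EV organoids between media, 41 for the response of BRAF against EV organoids) and changed, among the 48 genes over all 12 contrasts, the calls of Kif20a, Foxm1 and Cenpk given above.

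Counts in base medium against EV organoids and within EV organoids kept to 44 to 46 (EV medium), 44 to 46 (BRAF) and 46 to 47 (selected) without single arrays. Between media in BRAF organoids the count was 10 with the culture block, 10 without BRAF line 1 and 0 to 9 without single arrays. In ENSW medium BRAF against EV gave 1 with the mean of probes, 0 with only the groups compared, 0 without BRAF line 2, 0 without EV line 3 and 0 to 2 without single arrays. Selected against EV gave 1 with median scaling, 5 with only the groups compared (2 higher, 3 lower), 0 without selected line 1, 0 without EV line 3 and 0 to 3 without single arrays. Selected against BRAF in base medium gave 29 with normexp, 31 with the authors' values, 6 with the culture block, 2 with slide fixed, 0 with only the groups compared, 4 without selected line 1, 3 without BRAF line 2, 26 without BRAF line 1, 26 without EV line 3 and 3 to 31 without single arrays. The response of BRAF against EV gave 16 with slide fixed, 1 with only the groups compared, 26, 3 and 15 without BRAF line 2, BRAF line 1 and EV line 3, and 7 to 42 without single arrays. The causes were not tested.

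Directions turned in these uncalled genes. Ncapg, BRAF against EV in base medium, gave -0.17 with normexp, -0.27 with the authors' values and -0.21 to 2.52 without single arrays. Pttg1 gave -0.29 (BRAF) and -0.15 (selected) without EV line 3, and without single arrays -0.29 to 0.37, -0.15 to 0.51 and, between media in EV organoids, -0.042 to 0.78. Within each EV line Pttg1 was higher in base medium, so the turn between media came only with leaving 1 array of a pair out. Tpx2, selected against BRAF in base medium, gave 0.43 with the mean of probes, 0.0072 without BRAF line 2 and -0.77 to 0.0072 without single arrays. In the response of BRAF against EV, Pttg1 gave -0.62 to 0.20 without single arrays, Ttk -0.073 and Ncapg -0.30 with normexp, and Ncapg -0.053 with the authors' values. The members' median between media in EV organoids was -2.62 with normexp. Dim probes, among them those of Aurkb, Ttk and Cenpf, limit what can be said.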
